A study of Mus musculus with 6 samples.

Results

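The A-class Eph system comprises the EphA receptors and their ephrin-A ligands, and 10 of its genes were followed here in the primary somatosensory cortex (S1) of mice at postnatal day 7. The genes were 6 receptors (Epha3, Epha4, Epha5, Epha6, Epha7 and Epha8) and 4 ligands (Efna1, Efna2, Efna3 and Efna5), listed as a family, with earlier results of these data known, out of 35715 gene names on the array. Every non-control probe carrying one of these gene names was taken, which gave 14 of the 55681 probes on the array, 9 for receptors and 5 for ligands. All 14 were well above background on all 6 arrays and entered the test, as did 50030 probes in all.

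S1 was dissected from C57BL/6 mice and its total RNA was hybridised to single-colour arrays, 1 per sample, all on 1 slide. The 3 control samples carried floxed Lhx2 alleles without Cre, although their titles call them WT. The 3 samples labelled cKO carried the floxed alleles with Nex-Cre, a Cre gene placed in the Neurod6 locus and switched on once excitatory cortical neurons have left division, so that glia, blood vessels, interneurons and incoming thalamic axons lie outside the deletion. Whether the samples of a group were separate animals is not stated. A p-value here therefore covers no more than how far these samples spread, which may be technical. In dissected tissue fewer cells of a type and less RNA per cell cannot be told apart.

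Eph receptors are tyrosine kinases that read ligands on the surface of neighbouring cells, and contact usually makes the growing axon withdraw. Ephrin-A ligands are held to the membrane by a lipid anchor and can also signal back into the cell that carries them. In the developing mouse cortex, graded ephrin-A5 in S1 and graded EphA receptors on thalamic axons help to place the map of the body surface, and cortical EphA receptors take part in sorting neurons and their own axons.

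Probes of Epha7, Epha6, Epha5 and Efna5 are shown with their mm9 positions, because the results turn on how several probes of a gene compare and on the receptors and the ligand that differed most. The first 2 lines are whole 60-base probes of Epha7. Per the file, the first is annotated to transcript variant 2 and the second, 21305 bases further along the chromosome, to transcript variant 1. The other lines are the last 30 bases of a probe, and in the first Epha5 line the capitals mark an unbroken TG repeat.
Epha7, probe A_55_P1969058, chr4:28869764-28869823, plus strand: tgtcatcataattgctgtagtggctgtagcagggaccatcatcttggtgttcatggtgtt
Epha7, probe A_52_P504787, chr4:28891069-28891128, plus strand: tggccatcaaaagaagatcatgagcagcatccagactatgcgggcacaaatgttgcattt
Epha7, probe A_52_P306236, chr4:28873600-28873629, plus strand: cattgttctgagagcagtacgatttcatgg
Epha6, probe A_66_P132657, chr16:59653458-59653487, minus strand: tgatgatagataagaagaaaatagctgatc
Epha5, probe A_55_P2062911, chr5:84487348-84487377, minus strand: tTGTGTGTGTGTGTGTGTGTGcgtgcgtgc
Epha5, probe A_55_P2100425, chr5:84483837-84483866, minus strand: tttgtgtacatgtttttgtagtgtaagata
Efna5, probe A_51_P144319, chr17:62954177-62954206, minus strand: atgaaacaattcctcatggccctctctgcc

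Several facts of the arrays bear on every value. The Lhx2 probe read 3.49, 3.51 and 3.44 in control replicates 1, 2 and 3 and 4.43, 4.55 and 4.78 in the samples labelled cKO (log2 scale, with the 75th percentile of each array set to 0). This is opposite to a loss of transcript, and no source used here says whether the probe lies in the deleted part, so the phrase "arrays labelled cKO" is kept and every direction rests on the labels. Neurod6, whose locus holds Nex-Cre, read 2.14, 2.01 and 2.24 in control replicates 1, 2 and 3 and 2.73, 2.37 and 2.41 in cKO replicates 1, 2 and 3, also higher without overlap (log2 difference 0.38, limma adjusted p = 0.617). Y-linked signal was present on 2 of 3 control arrays (replicates 1 and 3) and 0 of 3 arrays labelled cKO. By the position numbers in their barcodes, the arrays lay in 4 rows of the slide, with 1 array of each group in row 1 and in row 2. Control replicate 3 was in row 3 and cKO replicate 1 in row 4. By the same numbers, control replicates 1, 2 and 3 and cKO replicate 1 lay in column 1. The cKO replicates 2 and 3 lay in column 2, so column and group were largely confounded. All 10 excitatory neuron markers passed the filter on dim probes. Of the markers of neighbouring tissues, the thalamic gene Gbx2 was well above background on 1 array, and every marker listed for striatum, hippocampus and meninges passed the filter.

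Across the family, Epha7, Epha6 and 1 of the 2 probes of Epha5 read higher in the arrays labelled cKO, while Efna5 and Epha8 read lower. Control arrays and arrays labelled cKO stood fully apart for 6 probes that were higher and 2 that were lower, where 6.79% and 5.87% of all tested probes did the same. In the limma fit, 7 of 14 probes had an unadjusted p under 0.05 (5 higher, 2 lower), against 6.8% of all tested probes (2.9% higher, 3.9% lower). None of the 14 passed an adjusted p of 0.05 over all tested probes, and neither did any other probe on the array (0%, 0 of 50030, of which 3400 had an unadjusted p under 0.05). The median log2 difference of the 14 probes was 0.21, against 0.02 over all tested probes.

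**Figure D1:**
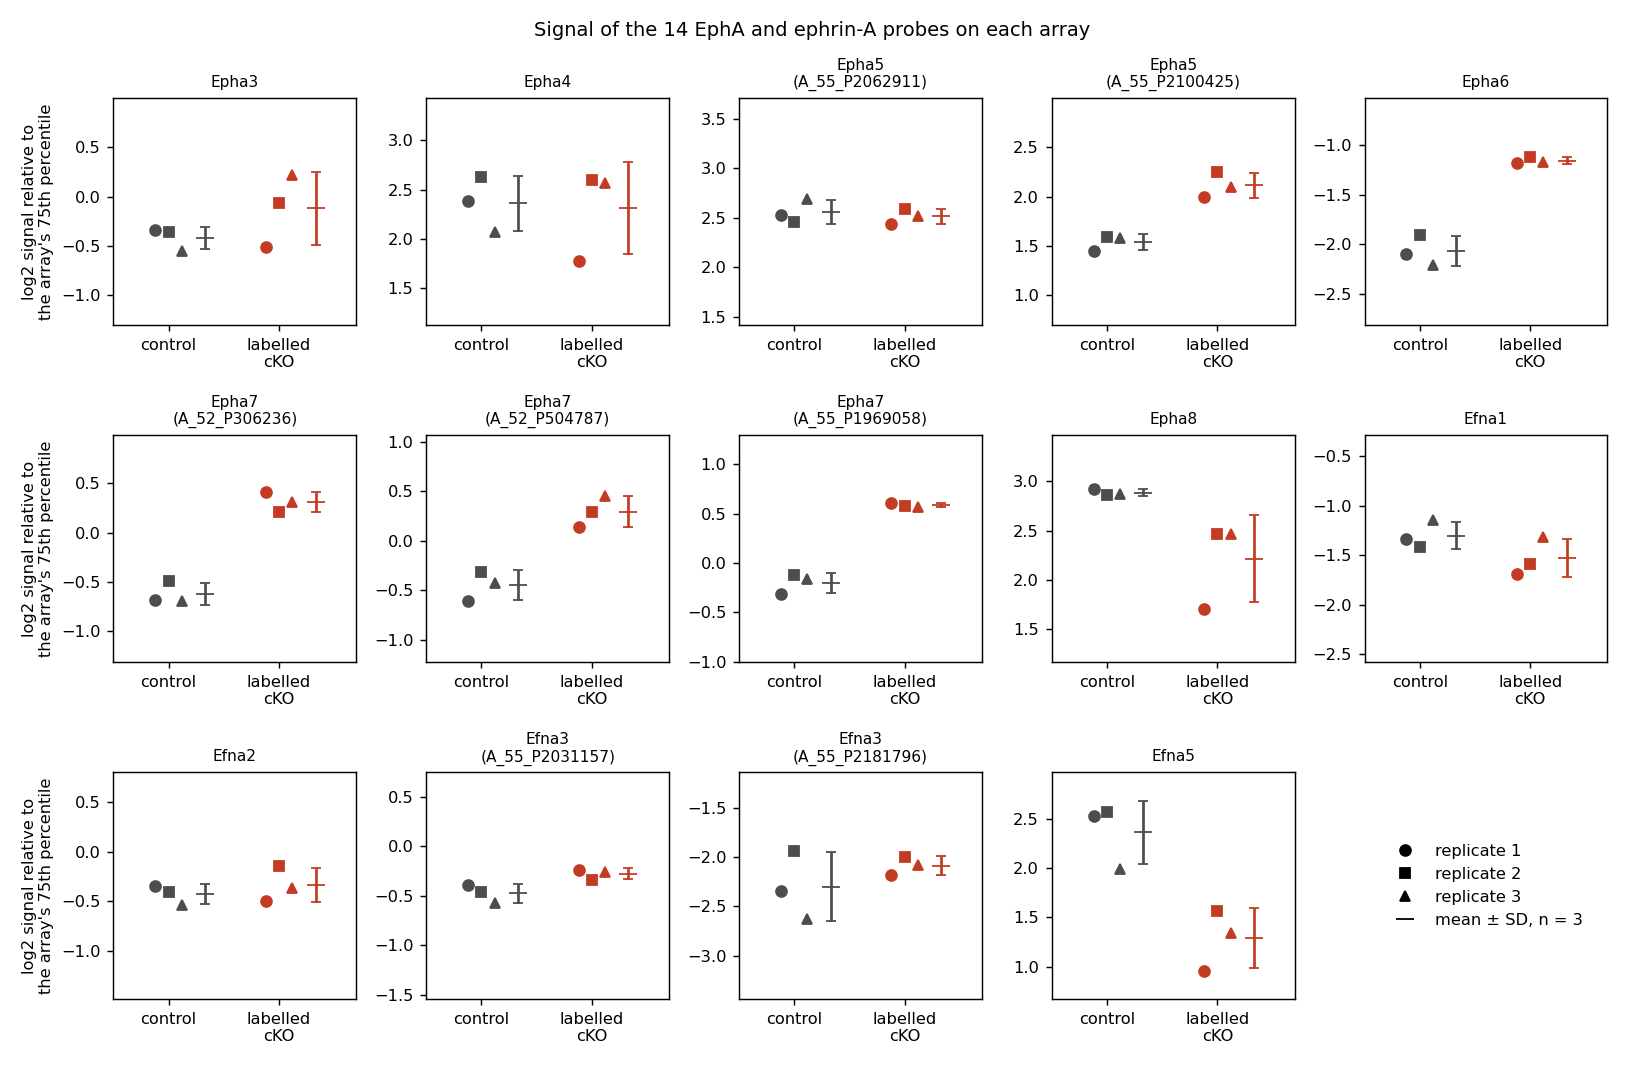
Log2 signal, 0 being the 75th percentile of each array (vertical axis, each panel spanning the same range) for each of the 14 probes on the 3 control arrays (grey) and the 3 arrays labelled cKO (red), with the mean ± SD beside the points. Epha6 and all 3 Epha7 probes separate upward and Efna5 and Epha8 downward, whereas Epha4 overlaps almost completely.

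Epha7, a receptor found in graded fashion across cortical areas, was read by 3 probes that all gave more signal in the arrays labelled cKO. Probe A_55_P1969058 read -0.31, -0.12 and -0.16 in control replicates 1, 2 and 3 and 0.61, 0.58 and 0.57 in cKO replicates 1, 2 and 3. The 3 arrays labelled cKO lay within a narrow band, and each was above every control array. The signal was 1.72-fold higher (log2 difference 0.79, SE 0.09, 95% interval 0.56 to 1.01, limma adjusted p = 0.105).

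The other probe annotated to Epha7 transcript variant 2, A_52_P306236, was 1.91-fold higher (log2 difference 0.93, SE 0.11, limma adjusted p = 0.098), from -0.63 ± 0.11 in control to 0.31 ± 0.10 in the arrays labelled cKO (mean ± SD, n = 3 each). The variant 1 probe A_52_P504787 was 1.67-fold higher (log2 difference 0.74, SE 0.13, limma adjusted p = 0.231), from -0.45 ± 0.15 to 0.29 ± 0.16. Transcript variants of Epha7 include short forms that lack the kinase domain, as background. The probes annotated to both variants read higher here. The annotation does not show that a probe reads 1 variant alone, so which forms differed was not tested. A test of whether the 3 probes differed from each other in their group difference gave an unadjusted p of 0.412 (limma diffSplice, an F test within the gene).

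Each Epha7 difference was also seen between arrays in the same row of the slide. For A_55_P1969058 it was 0.90 in row 1 and 0.69 in row 2, and for A_52_P504787 it was 0.91 and 0.76. The arrays compared within a row sat in different columns. A within-row difference therefore cannot tell slide column from group, for Epha7 or for any other gene given by row below. Against control replicate 2 alone, the control array without Y-linked signal, the 3 probes gave differences between 0.61 and 0.80. All 3 probes thus read higher in the arrays labelled cKO in each of these comparisons, every one of which rests on 1 control array.

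Epha6, another neuronal receptor for ephrin-A ligands, also read higher in the arrays labelled cKO. Its probe read -2.10, -1.91 and -2.21 in control replicates 1, 2 and 3 and -1.17, -1.12 and -1.17 in cKO replicates 1, 2 and 3. The groups did not overlap, and the arrays labelled cKO varied less (SD 0.03) than the control arrays (SD 0.15). The signal was 1.89-fold higher (log2 difference 0.92, SE 0.11, 95% interval 0.66 to 1.17, limma adjusted p = 0.103). Within slide rows 1 and 2 the Epha6 difference was 0.98 and 0.74, and against control replicate 2 alone 0.75.

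Epha5, a receptor for several ephrin-A ligands in forebrain neurons, gave 2 different answers from its 2 probes, which lie 3511 bases apart and are annotated to the same transcript. Probe A_55_P2100425 read 1.45, 1.60 and 1.58 in control replicates 1, 2 and 3 and 1.99, 2.25 and 2.10 in cKO replicates 1, 2 and 3. The groups did not overlap, and the log2 difference was 0.57 (1.49-fold, SE 0.11, 95% interval 0.32 to 0.83, limma adjusted p = 0.271).

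The second Epha5 probe, A_55_P2062911, read between 2.45 and 2.69 in control and between 2.44 and 2.59 in the arrays labelled cKO. Its groups overlapped. Its log2 difference was -0.04 (SE 0.10, 95% interval -0.29 to 0.21, limma adjusted p = 0.999). On each array, A_55_P2100425 minus A_55_P2062911 was between -1.11 and -0.86 in control and between -0.44 and -0.34 in the arrays labelled cKO. The disagreement between the 2 Epha5 probes had an unadjusted p of 0.0012 and an adjusted p of 0.582 (diffSplice, over 9775 genes). Of the 3 member genes with more than 1 probe, 0 passed that test, where 0.0205% of all genes tested did.

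A_55_P2062911 is the Epha5 probe with the TG repeat shown above. It was the only probe of the family with 16 or more unbroken bases of TG or GT repeat on the printed strand, which 75 of the 55681 probes hold (0.135%). The median log2 difference of the tested probes with the repeat was 0.02, the same as that of the probes without it. The median over all tested probes was also 0.02, so these medians cannot show an effect of the repeat. Whether the repeat bears on this probe's reading was not tested.

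Epha8, a receptor best known from the midbrain visual map in mice, read lower in the arrays labelled cKO. The values were 2.92, 2.86 and 2.87 in control replicates 1, 2 and 3 and 1.71, 2.47 and 2.47 in cKO replicates 1, 2 and 3. The groups did not overlap, but cKO replicate 1 stood well below the other two. The log2 difference of Epha8 was -0.67 (1.59-fold lower, SE 0.21, 95% interval -1.18 to -0.16, limma adjusted p = 0.561). Without cKO replicate 1 it was -0.42, and within slide rows 1 and 2 it was -0.46 and -0.39.

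Epha4, which binds both ephrin classes and is present in neurons and astrocytes, varied more within the groups than between them. It read 2.39, 2.63 and 2.07 in control replicates 1, 2 and 3 and 1.78, 2.60 and 2.56 in cKO replicates 1, 2 and 3. The 2 low arrays, 1 of each group, were those in slide rows 3 and 4. Each was alone in its row, so row and sample cannot be told apart. The log2 difference of Epha4 was -0.05 (SE 0.25, 95% interval -0.65 to 0.56), and with the slide row as a term it was 0.036. A p that misses the threshold does not show that Epha4 was alike in both groups, since the interval holds values on both sides of 0.

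Epha3, a receptor with a strong affinity for ephrin-A5, read between -0.55 and -0.34 in control and -0.51, -0.06 and 0.22 in cKO replicates 1, 2 and 3. The groups overlapped through cKO replicate 1. Its log2 difference was 0.30 (SE 0.19, 95% interval -0.15 to 0.76, limma adjusted p = 0.92).

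Among the ligands, Efna5, the ephrin-A with a graded pattern in S1, had the largest difference of the 14 probes. It read 2.52, 2.56 and 1.99 in control replicates 1, 2 and 3 and 0.96, 1.57 and 1.34 in cKO replicates 1, 2 and 3. All 3 arrays labelled cKO were below every control array, with control replicate 3 and cKO replicate 1 the lowest of their groups. The signal was 2.10-fold lower (log2 difference -1.07, SE 0.21, 95% interval -1.58 to -0.56, limma adjusted p = 0.312).

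The raw processed intensities of Efna5 were 6058, 6287 and 3541 units in control replicates 1, 2 and 3 and 1929, 2706 and 2595 in cKO replicates 1, 2 and 3. The groups did not overlap before scaling either. Within slide row 1 the log2 difference of Efna5 was -0.95 and within row 2 it was -1.22. Against control replicate 2 alone it was -1.27. The limma adjusted p was 0.13 with the slide row as a term, 0.62 with the replicate number as a block and 0.99997 against control replicate 2 alone.

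The other ligands differed less. Efna1, known for its role in blood vessels, differed by -0.23 (SE 0.13, 95% interval -0.55 to 0.09), and Efna2, which acts with Efna5 in the visual map of mice, by 0.10 (SE 0.12, 95% interval -0.19 to 0.39). Efna3, an ephrin of hippocampal astrocytes in mice, gave 0.20 (SE 0.10) and 0.22 (SE 0.18) with its 2 probes. Efna3 probe A_55_P2031157 read between -0.58 and -0.39 in control and between -0.34 and -0.24 in the arrays labelled cKO, without overlap, and its limma adjusted p was 0.812. The limma adjusted p of the other 3 ligand probes lay between 0.894 and 0.999.

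**Figure D2:**
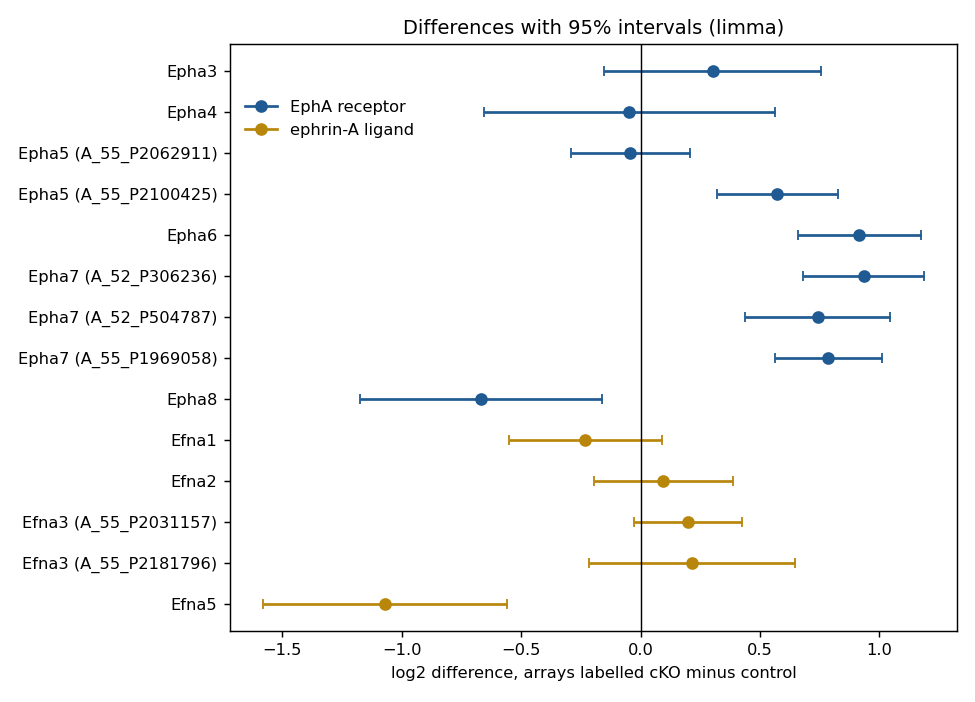
Log2 difference of each probe, arrays labelled cKO minus control (horizontal axis), with the 95% interval from limma; receptors are blue and ligands yellow. The intervals of Epha6, all 3 Epha7 probes and Epha5 probe A_55_P2100425 lie above 0 and those of Epha8 and Efna5 below it, before any adjustment for the 50030 probes tested.

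Seen array by array and relative to the control mean, Epha6 lay between 0.90 and 0.95 on the arrays labelled cKO. The Epha7 probes lay between 0.77 and 0.81 (A_55_P1969058), between 0.83 and 1.04 (A_52_P306236) and between 0.58 and 0.90 (A_52_P504787). Efna5 lay between -1.40 and -0.79 and Epha8 between -1.17 and -0.42, both lowest on cKO replicate 1. That array, alone in slide row 4, was the lowest of the arrays labelled cKO for every member probe except A_52_P306236 and A_55_P1969058 of Epha7 and A_55_P2031157 of Efna3.

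**Figure D3:**
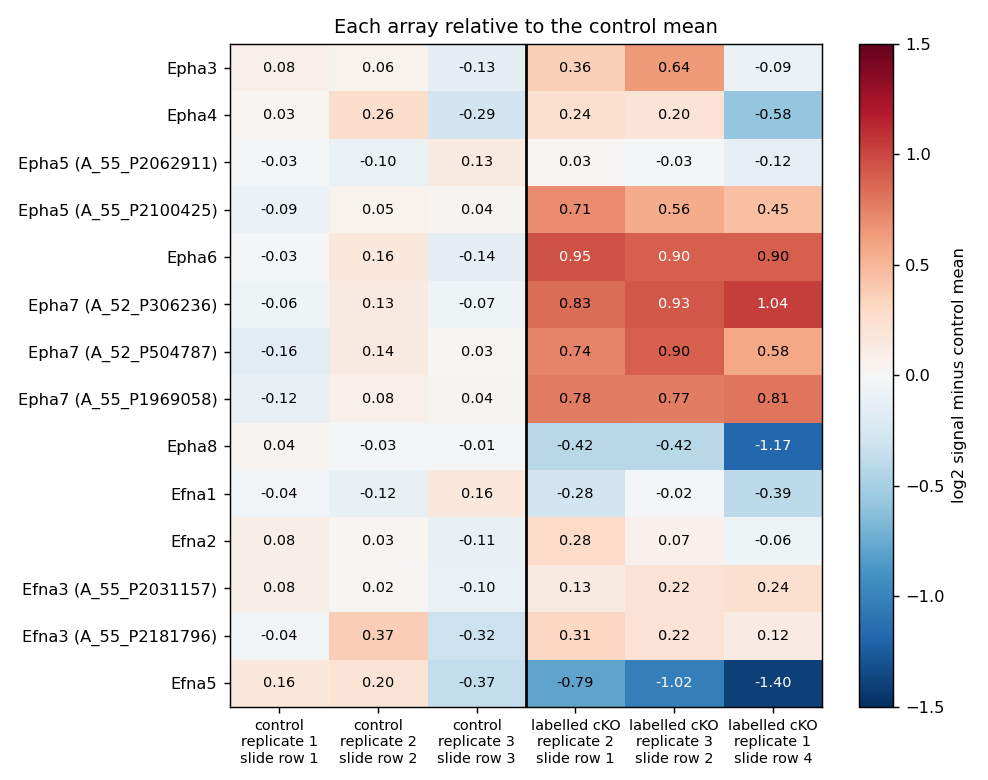
Log2 signal of each probe minus its control mean (colour and printed value) on each array, ordered by group and slide row. Epha6 lies between 0.90 and 0.95 and the Epha7 probes between 0.58 and 1.04 on the arrays labelled cKO, while Efna5 and Epha8 are lowest, at -1.40 and -1.17, on cKO replicate 1.

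Markers of other cell types differed between the same arrays. All 10 astrocyte markers had lower means in the arrays labelled cKO, with summed signal (in units of the array's 75th percentile) of 88.2 to 106 against 124 to 148 in control. All 10 microglial markers were lower, with sums of 58.7 to 61.9 against 71.9 to 74.7, and 8 of 10 oligodendrocyte lineage markers were lower, with sums of 125 to 144 against 149 to 184. Every marker in these 3 lists passed the filter on dim probes. Of 10 interneuron markers 9 were lower (59.1 to 71.6 against 76.1 to 76.7), whereas 5 of 10 excitatory neuron markers and 5 of 10 endothelial markers were lower, with overlapping sums in both lists. All 6 meningeal markers were lower with overlapping sums, and striatal markers summed to 21.5 in control replicate 3 against 9.03 to 12.3 elsewhere. All 4 thalamic markers tested were lower, with sums of 3.98 to 4.40 against 4.84 to 4.94. Among them Slc17a6, a glutamate transporter gene listed here as a thalamic marker, differed by -0.35 (SE 0.14, limma adjusted p = 0.716) without overlap. Prkcd (-0.13), Lef1 (-0.06) and Tcf7l2 (-0.004) overlapped between the groups. The part of these cell types in the Eph and ephrin values was not tested.

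The probes whose profile over the 6 arrays lay nearest to a member were found by the root mean square difference of log2 values after each probe's own mean was subtracted. For Epha7 probe A_55_P1969058 the nearest were both probes of Socs2, an inhibitor of cytokine signalling (0.075 and 0.078), then Ryr3, a calcium release channel (0.081), Ube2e3, a ubiquitin-conjugating enzyme (0.088) and Duoxa1, a maturation factor of an oxidase (0.096). For Epha6 they were the same 2 Socs2 probes (0.064 and 0.070), both probes of Flrt3, an adhesion protein of guided axons (0.082 and 0.092), and Epha7 probe A_52_P306236 (0.083). For Efna5 they were the potassium channel subunit gene Kcnab3 (0.101), the transcription factor genes Cux1 (0.108) and Bcl6 (0.111), the myelin gene Mbp (0.111) and the plexin gene Plxnb3 (0.114). That Mbp probe, A_52_P329451, had a log2 difference of -1.24. The brightest Mbp probe, A_52_P604195, went the other way, at 0.16 and higher without overlap. These likenesses over 6 arrays mostly restate a similar group difference, and no test was made of them.

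The other Eph receptors and ephrins were also measured, with 1 probe per gene, the brightest. Of 12 genes, 0 passed the adjusted threshold. With unadjusted p under 0.05, 3 were higher and 1 lower, where 2.96% and 4.16% of the brightest probes of all genes were. The 3 higher genes were the ephrin-B ligands, membrane-spanning proteins that mainly bind EphB receptors: Efnb2 with a log2 difference of 0.40 (SE 0.10), Efnb1 with 0.44 (SE 0.14) and Efnb3 with 0.49 (SE 0.17). Efnb2, the clearest of them, read 1.52, 1.65 and 1.51 in control replicates 1, 2 and 3 and 1.94, 1.86 and 2.08 in cKO replicates 1, 2 and 3. The lower gene was Ephb6, a receptor without kinase activity, at -0.42 (SE 0.17). Over the list, the groups did not overlap for 3 higher and 2 lower genes. Among the brightest probes of all genes, 7.15% and 6.19% did the same. These genes were the 4 named and Epha2, an A-class receptor outside the members followed here, at -0.22 (SE 0.10, limma adjusted p = 0.758). The other A-class genes of the list, Epha1 (0.08), Epha10 (-0.06) and Efna4 (0.09), overlapped between the groups. The limma adjusted p of Efnb1, Efnb2, Efnb3 and Ephb6 lay between 0.425 and 0.715, and the median of the 12 was 0.07.

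Proteins that act with EphA receptors or ephrin-A ligands, 34 genes of adaptors, exchange factors, kinases, phosphatases and partners, had a median log2 difference of 0.02, and 0 passed the adjusted threshold. With unadjusted p under 0.05, 1 was higher and 2 were lower, and the groups did not overlap for 3 higher and 5 lower genes. Over the brightest probes of all genes the shares were 2.96% and 4.16% by unadjusted p and 7.15% and 6.19% by overlap. Ptpro, a phosphatase that acts on Eph receptors, read 2.35, 2.34 and 2.28 in control replicates 1, 2 and 3 and 2.80, 2.80 and 2.81 in cKO replicates 1, 2 and 3. Its difference was 0.48 (SE 0.08, limma adjusted p = 0.232). Inppl1, a lipid phosphatase that binds EphA receptors, differed by -0.46 (SE 0.12), Ngfr, a neurotrophin receptor that can partner ephrin-A on axons, by -0.33 (SE 0.11) and Sipa1l1, a regulator of Rap at synapses, by -0.48 (SE 0.20). Their limma adjusted p lay between 0.425 and 0.74, and only Sipa1l1 of the 4 named overlapped between the groups.

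**Figure D4:**
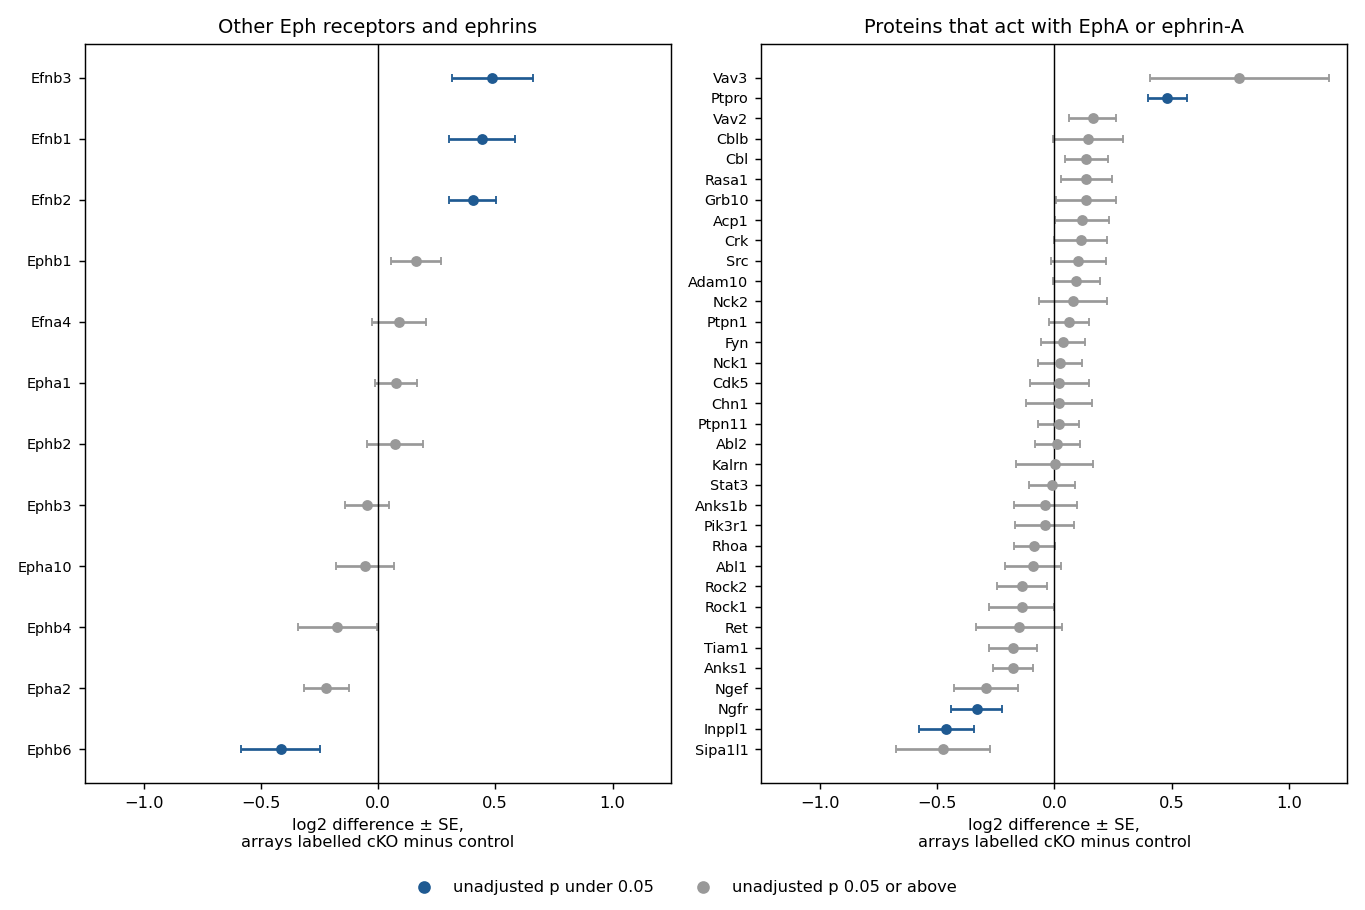
Log2 difference ± SE, arrays labelled cKO minus control (horizontal axis), for 12 other Eph receptors and ephrins (left) and 34 genes that act with the A-class system (right), with unadjusted p under 0.05 in blue. The 3 ephrin-B ligands stand at the top of the left panel at 0.40 to 0.49, and most genes of the right panel lie near its median of 0.02.

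Since members at separate loci differed, the promoters of all 10 genes (13 windows of 250 bases before to 50 after a start, RefSeq, GRCm38.p6) were searched on both strands for TAATTA and TAATTG, 6-letter sites of the kind that homeodomain proteins bind. The 2 motifs share letters but no window was counted more than once. Windows of Epha7 (2, for neighbouring starts), Epha5 (1) and Efna1 (1) held a match, 4 of 13, where 12.4% of all 32851 promoter windows did (TAATTA 5.29%, TAATTG 8%). The 2 Epha7 windows overlap and hold the same site, which therefore counts in both. The windows of Epha6, Epha8 and Efna5 held none of these letters. The Epha7 and Efna5 windows are printed because these members differed in opposite directions, with the match in capitals.
Epha7, chr4:28812881-28813180, plus strand, GRCm38.p6: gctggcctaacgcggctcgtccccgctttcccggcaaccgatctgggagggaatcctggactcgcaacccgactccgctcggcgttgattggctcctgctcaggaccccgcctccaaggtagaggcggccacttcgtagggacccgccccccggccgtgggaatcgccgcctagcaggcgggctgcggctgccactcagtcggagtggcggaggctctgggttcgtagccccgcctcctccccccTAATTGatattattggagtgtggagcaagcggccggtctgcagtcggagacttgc
Efna5, chr17:62881268-62881567, minus strand, GRCm38.p6: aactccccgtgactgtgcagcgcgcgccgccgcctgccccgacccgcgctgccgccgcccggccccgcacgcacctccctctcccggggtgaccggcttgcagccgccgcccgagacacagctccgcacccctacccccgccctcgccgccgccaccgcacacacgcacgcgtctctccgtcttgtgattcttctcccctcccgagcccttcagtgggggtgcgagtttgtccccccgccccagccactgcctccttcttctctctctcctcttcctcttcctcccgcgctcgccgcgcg
The Epha7 match starts at base 246 of its window, at the annotated start. The GC content was 67% for the Epha7 window and 73.3% for the Efna5 window, against a median of 52.7% over all windows. No binding was measured in this study, so a match is a description of letters only.

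Under other ways of processing, the sign held for 10 of 14 probes in every alternative: Epha3, Epha5 probe A_55_P2100425, Epha6, all 3 of Epha7, Epha8, Efna2, Efna3 probe A_55_P2031157 and Efna5. Not every alternative could turn a sign. The filters, the intensity trend with robust variances, the replicate block and the choice of the brightest probe leave a probe's difference as it was. The term for Y-linked signal and leaving out the arrays with it give the same differences. Members passed the adjusted threshold in 4 of 22 tested alternatives. With normexp background correction Epha6 and the variant 2 probes of Epha7 passed, 3 probes where 0.184% of all tested probes did, and the same 3 passed with quantile normalization added, where 0.17% did. With an intensity trend and robust variances all 3 Epha7 probes and Epha6 passed, where 0.236% of all did. With array weights Efna5 passed at -1.18 (adjusted p = 0.035) beside Epha6 and the variant 2 probes of Epha7, where 0.574% of all did.

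**Figure D5:**
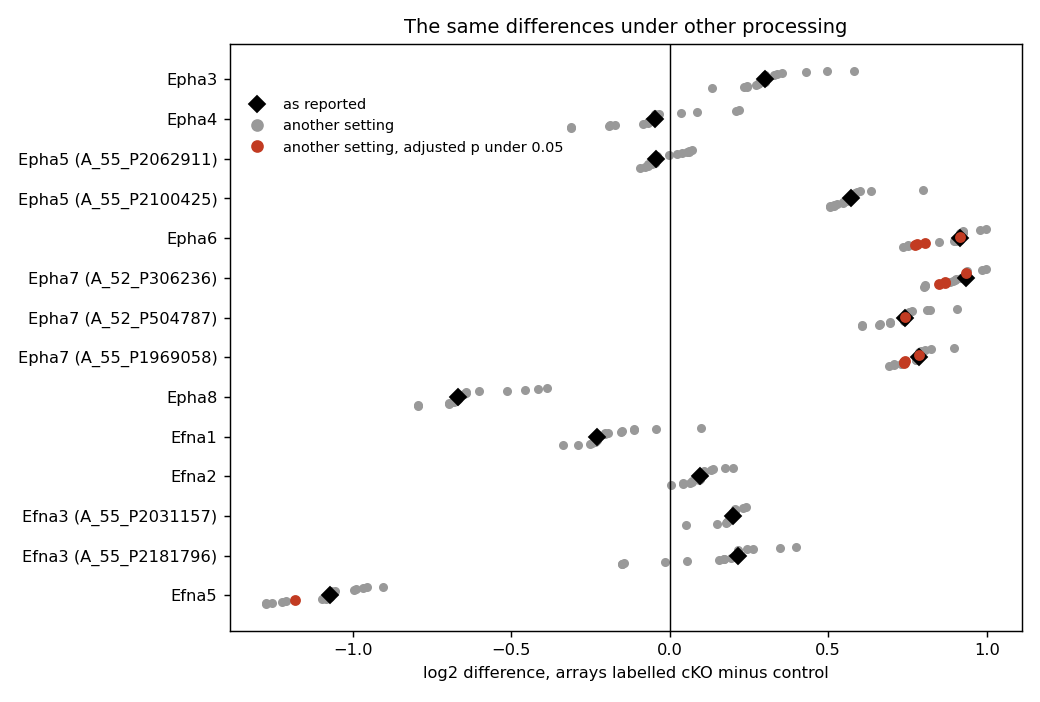
Log2 difference of each probe as reported (black diamond) and under each other setting (circles; red, drawn over the diamond, where the adjusted p was under 0.05), arrays labelled cKO minus control. Epha6 and the Epha7 probes stay above 0.6, Efna5 between -1.27 and -0.91, and Epha4 spreads on both sides of 0.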

How the data were processed

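Total RNA of S1 from 6 samples was hybridised to 1-colour Agilent arrays, 1 per sample. Per the file headers, the deposited scanner files hold intensities written by Feature Extraction 10.5.1.1: a processed intensity after spatial detrending and background subtraction, not normalized between arrays, and a raw mean and local background intensity. Flags for detection and outliers were read as deposited. The authors' deposited matrix holds log2 values centred on each probe, and no source used here states how they were made. They match quantile-normalized log2 signals minus the probe median (95% of values within 0.00235), so scale and centring are inferred, and the column medians lie between -0.0064 and 0.00645.

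The value tested was log2 processed intensity minus the array's 75th percentile (889 to 1064 intensity units). Controls and spots with an outlier flag, of which an array had 112 to 198, were dropped, spots of a probe averaged, and a probe tested if well above background on at least 3 of 6 arrays. The share of spots well above background was 86.7% to 91.1%, and 0 spots were saturated. The number of arrays limits the precision. Groups were compared with limma 3.58.1 (R 4.3.3), two-sided, with Benjamini-Hochberg adjustment over 50030 probes; a fold is 2 to the power of the log2 difference. Probe disagreement within a gene was tested with diffSplice. Gene names and probe positions (mm9) are those of the files.

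On simulated data (50030 probes, real means), limma recovered 0% of probes shifted by 0.5 on the log2 scale, 31.3% at a shift of 1 and 90.9% at 2. With spreads drawn independently per probe, diffSplice recovered 34 of 39 genes with 1 probe shifted by 2 and called 18 unchanged genes, so its calls may be too many. A per-array difference between probes, added after seeing the data, recovered 26 and called 2.

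The members, gene lists and tests were chosen with earlier results of these data known. The genes named are every member probe, Lhx2, up to 4 genes per pathway list by smallest p, and the 5 probes nearest in profile to Epha7, Epha6 and Efna5. Clone and provisional names were left out of the last, as were probes with a range under 0.5. Alternatives covered scaling, background, filters, variance model, array weights, replicate block, slide row, Y-linked signal, each array left out, the authors' matrix and 1 value per gene.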

Additional observations from a re-analysis of the deposited data

How the results depend on the processing

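Over all tested probes, 0 passed as reported. The count was 1 with quantile normalization, 10 with median centring, 92 with normexp background correction, 85 with normexp and quantile normalization, 1 with the filter on all arrays, 118 with an intensity trend and robust variances, 287 with array weights, 1 with the authors' matrix, 2 with the brightest probe and 2 with the mean of a gene's probes; with each array left out it lay between 0 and 10. Member probes called numbered 3 with normexp under either scaling, 4 with the trend and robust variances and 4 with array weights. The cause was not tested. Members at an unadjusted p under 0.05 numbered 7 as reported and 4 with 1 probe per gene, where fewer probes are tested and Epha5 is represented by A_55_P2062911. With each array left out, the lowest adjusted p was 0.229 for Epha6, 0.214 for Epha7 and 0.285 for Efna5.

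Signs turned for 4 probes, none of which had an unadjusted p under 0.05 as reported. Epha5 probe A_55_P2062911 gave 0.037 with array weights and 0.062 both with Y-linked signal as a term and without the arrays carrying it, and between -0.095 and 0.024 with each array left out. Efna3 probe A_55_P2181796 gave -0.014, -0.15 and -0.15 in the first 3 of these. Epha4 gave 0.036 with the slide row as a term and between -0.19 and 0.22 with each array left out (0.22 without cKO replicate 1). Within single slide rows, with no test, other signs turned as well. In row 2 Efna1 gave 0.098 and Efna3 probe A_55_P2181796 gave -0.15. Epha4 gave 0.21 in row 1. Epha5 probe A_55_P2062911 gave 0.056 in row 1 and 0.070 in row 2. Besides Epha4 and that Epha5 probe, leaving out 1 array moved 5 differences by over 1.5 times: Epha8 to -0.42 without cKO replicate 1; Epha3 to 0.50 without cKO replicate 1 and 0.13 without cKO replicate 3; Efna1 to -0.15 without cKO replicate 1 or control replicate 3; Efna2 to 0.18 and 0.0023 without cKO replicates 1 and 2 and 0.040 without control replicate 3; and Efna3 probe A_55_P2181796 to 0.40 and 0.053 without control replicates 2 and 3.

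Genes whose probes disagreed numbered 2 as reported (Ehf and an unnamed transcript, picked after their values were seen), 0 with quantile normalization, 1 with median centring, 4 with no filter, 1 with the filter on all arrays, 0 with the replicate block, 0 with per-array differences and between 0 and 4 with each array left out. The median of the other Eph receptors and ephrins was 0.18 within slide row 2.

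Samples with the same replicate number share only a number: their deviations from the group means correlated at -0.17, 0.07 and 0.16. With the replicate number as a block, 0 probes passed, 7 member probes had an unadjusted p under 0.05. The design is balanced, so the block cannot move a difference (Epha7 0.93, 0.74 and 0.79). The adjusted p of the Epha7 probes was 0.528, 0.585 and 0.550, and that of Epha6 0.489. With 6 arrays on 1 slide, simulated shifts of 0.5 and of 1 on the log2 scale were mostly out of reach of the adjusted threshold (0% and 31.3% recovered). No shift between 1 and 2 was simulated.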
